A study of Rattus norvegicus with 8 samples.

Results

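Cytotoxic lymphocytes kill target cells with the contents of their granules, and the transcripts of that machinery were followed here in rat whole blood: the granzymes Gzma, Gzmb, Gzmm, Gzmk and Gzmf, the pore-forming protein gene Prf1, the granule genes Nkg7 and Ctsw, and the chemokine genes Ccl5 and Xcl1. The 10 genes were taken as a named list, and every probe set that the platform's annotation ties to exactly 1 of them was kept, which gave 11 probe sets of 31042 tested. Each gene had 1 probe set except Gzmb, which had 2. An additional probe set that names Gzmb together with a second gene was left out.

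The mulberry group, with 4 arrays, held male Wistar rats given a high-fat feed (Quick fat) with 1% mulberry leaf powder for 8 weeks, and the high-fat group, also with 4 arrays, held male Wistar rats given the high-fat feed alone for the same time. The animals were bought at 7 weeks of age, and blood was drawn on day 56 after a night without food, from 10 rats per diet. Both groups therefore ate the high-fat feed, and the comparison asks what the leaf powder added to it changes in blood cell transcripts. A normal-diet group of the study was not analysed here, and the labels leave unsaid whether the arrays carry RNA of single rats or of pools. The p-values therefore cover only the scatter among these arrays.

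In background, natural killer cells and activated CD8 T cells store granzymes, a family of serine proteases, in secretory granules. When such a cell meets a target, the granules fuse with its membrane, perforin opens the target's membrane, and the granzymes that enter cleave proteins that trigger cell death. The same cells release chemokines that draw in further leukocytes. In blood, transcripts of this kind come mainly from natural killer cells and cytotoxic T cells.

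The values are the authors' deposited log2 probe set summaries, and arrays differ far less in them than log2 intensities usually do. The median SD of a probe set over the 8 arrays was 5.31e-06, and 99.4% of probe sets had an SD under 0.001. The contrast between arrays is thus reduced to an extent that is not known and need not be equal for all probe sets. A difference is the mulberry mean minus the high-fat mean, divided by the SD of the probe set over all 8 arrays (SD units), and no fold change is read from it. Levels of different probe sets are not set against each other.

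No probe set of the cytotoxic genes passed the test between the diets. By limma with Benjamini-Hochberg adjustment over all probe sets, 0 of 11 had an adjusted p under 0.05 (every adjusted p rounded to 1), as did 0% of the 31042 tested, whose smallest adjusted p was 0.569. At an unadjusted p under 0.05 the count was 0 of 11, against 4.36% of all probe sets. Mean levels were lower with mulberry for 9 of the 11, against 47.3% of all probe sets, and the median difference was -0.70 SD units, against 0.056 over all probe sets. The share over all probe sets moves with the scaling, to 65.5% under quantile normalization and 3.07% under median centring. The count stayed at 9 of the 11 under both. Median centring could not have changed it for those 9. Its largest shift was -5.1e-05 (mulberry replicate 3), and the smallest of their differences on the deposited scale was -0.000375 (Xcl1). The mulberry and high-fat arrays overlapped for each of the 11, whereas they did not overlap for 2.52% of all probe sets.

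The lower means went with high values in 1 array. High-fat replicate 4 was the highest of the 8 arrays for 9 of the 11 probe sets, against 14.4% of all probe sets, and these are the 9 with lower mulberry means. It also stood far above the other 3 high-fat arrays by Dixon's criterion for all 9. Both traits together, highest array and past that criterion, held for 0.599% of all probe sets. These counts were made after the values were seen. Without that array, 8 of 11 had lower mulberry means, against 47.8% of all probe sets, and the median difference was -0.0768 SD units of the full set of arrays. Of the 9 lower with all arrays, 7 were lower without it, while Ccl5 and the Gzmb probe set 1379794_at turned higher and Ctsw turned lower. None of the 11 then had an unadjusted p under 0.05, against 3.81% of all probe sets, and 0% of all probe sets passed after adjustment in limma. With all 8 arrays and the bacterial hybridization controls as a covariate, 7 of the 11 were lower and the median difference was -0.178.

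**Figure D1:**
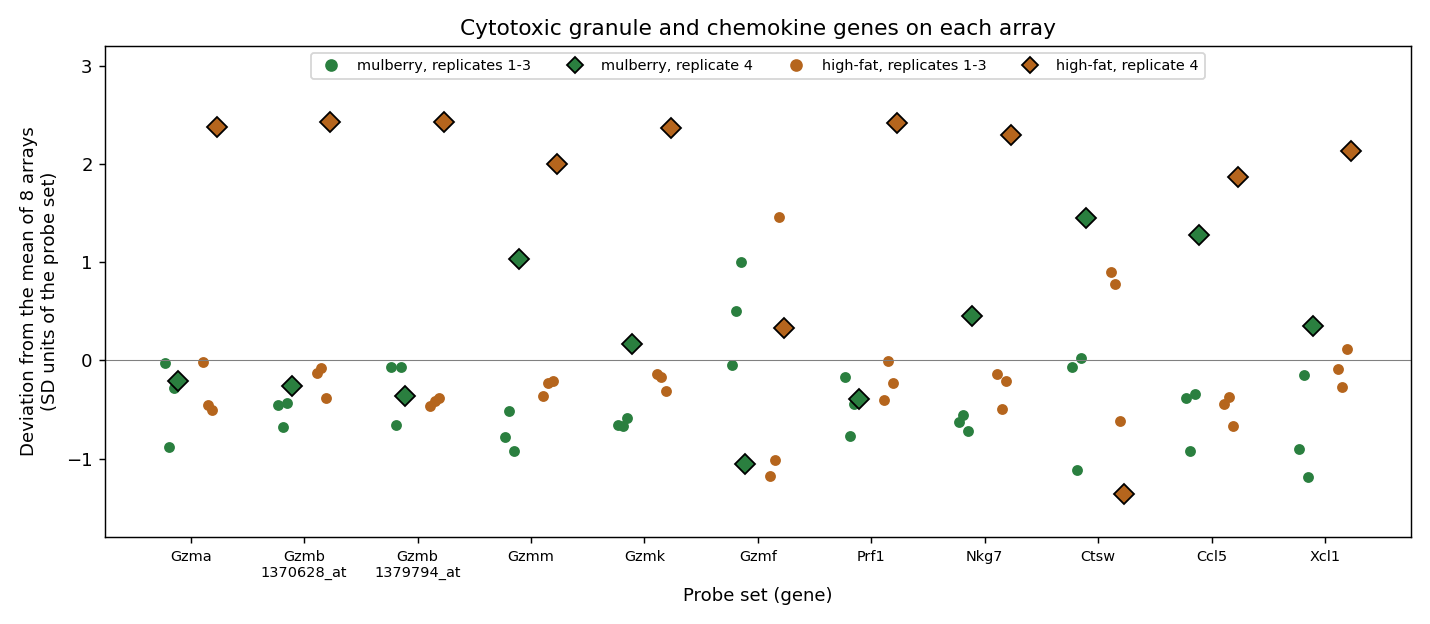
Deviation of each probe set from its mean over the 8 arrays, in SD units (vertical axis), for the 11 probe sets of the 10 genes (horizontal axis), with mulberry arrays in green left of high-fat arrays in brown and replicate 4 of each diet as a diamond. High-fat replicate 4 lies between 1.87 and 2.43 for 9 probe sets and at 0.33 and -1.36 for Gzmf and Ctsw.

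Granzyme B, the aspartate-directed protease that activates caspases in target cells, was read by 2 probe sets. The first (1370628_at) had deposited log2 levels of 6.8873, 6.8858, 6.8874 and 6.8885 in mulberry replicates 1 to 4, against 6.8893, 6.8897, 6.8877 and 6.9057 in high-fat replicates 1 to 4. High-fat replicate 4 was the highest, high-fat replicates 1 and 2 also lay above every mulberry array, and high-fat replicate 3 lay among the mulberry arrays, so the groups overlapped. It averaged 6.8872 ± 0.00109 in mulberry and 6.8931 ± 0.00843 in high-fat arrays (SD, n = 4 each). The difference was -0.92 ± 0.63 SD units (SE, 95% interval -2.41 to 0.57), and the two-sided exact permutation p over the 70 assignments of the arrays was 0.0571, where 4 against 4 cannot go below 0.0286. Leaving out high-fat replicate 4 took the difference to -0.261 ± 0.12.

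The second Gzmb probe set (1379794_at) read 6.5632, 6.5541, 6.5632 and 6.5586 in mulberry replicates 1 to 4, against 6.5572, 6.5579, 6.5584 and 6.6016 in high-fat replicates 1 to 4. Here mulberry replicates 1, 3 and 4 lay above high-fat replicates 1, 2 and 3, unlike in the first probe set. The difference was -0.59 ± 0.68 SD units (SE), with an exact permutation p of 0.8286, and it turned to 0.126 ± 0.156 without high-fat replicate 4. The 2 probe sets of the gene thus shared the peak in that array and differed in sign without it.

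Gzma and Gzmk encode granzymes that cleave after basic residues, and they lie next to each other on chromosome 2 with 0 annotated genes between them. Gzma levels were 6.8384, 6.8318, 6.8364 and 6.8370 in mulberry replicates 1 to 4, against 6.8385, 6.8351, 6.8347 and 6.8569 in high-fat replicates 1 to 4. Mulberry replicate 1 stood just below high-fat replicate 1 and above high-fat replicates 2 and 3, and mulberry replicate 2 was the lowest array. The Gzma difference was -0.70 ± 0.67 SD units (SE, 95% interval -2.28 to 0.88, exact permutation p = 0.486) and -0.0266 ± 0.236 without high-fat replicate 4.

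Gzmk levels were 8.1183, 8.1182, 8.1188 and 8.1240 in mulberry replicates 1 to 4, against 8.1218, 8.1217, 8.1206 and 8.1391 in high-fat replicates 1 to 4. Mulberry replicates 1, 2 and 3 lay below every high-fat array, while mulberry replicate 4 lay above high-fat replicates 1, 2 and 3, which closed the gap between the groups. Gzmk averaged 8.1198 ± 0.00278 in mulberry and 8.1258 ± 0.00885 in high-fat arrays (SD, n = 4 each). Its difference was -0.87 ± 0.64 SD units (SE, 95% interval -2.38 to 0.64, exact permutation p = 0.171) and -0.227 ± 0.226 without high-fat replicate 4.

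Gzmm, a granzyme that cleaves after methionine and related residues, had the same arrays at the top. Its levels were 7.9490, 7.9496, 7.9487 and 7.9532 in mulberry replicates 1 to 4, against 7.9500, 7.9503, 7.9503 and 7.9555 in high-fat replicates 1 to 4. Apart from replicate 4 of each diet, each of the 3 mulberry arrays stood lower than each of the 3 high-fat arrays. The difference was -0.59 ± 0.68 SD units (SE, exact permutation p = 0.457), and -0.0264 ± 0.495 without high-fat replicate 4, since mulberry replicate 4 at 1.03 SD units then weighed against the other 3.

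Gzmf, named in RefSeq also as Rnkp7 and known in mouse from activated cytotoxic lymphocytes, stood outside this pattern. Its levels were 5.945748, 5.945749, 5.945751 and 5.945745 in mulberry replicates 1 to 4, against 5.945744, 5.945745, 5.945752 and 5.945749 in high-fat replicates 1 to 4, and so differed only from the fifth decimal on. High-fat replicate 4 was neither the highest nor the lowest array, and the groups overlapped throughout. The difference was 0.20 ± 0.75 SD units (SE, 95% interval -1.57 to 1.98, exact permutation p = 0.8).

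Prf1 encodes perforin. Its levels were 8.7108, 8.7088, 8.7099 and 8.7100 in mulberry replicates 1 to 4, against 8.7100, 8.7113, 8.7105 and 8.7191 in high-fat replicates 1 to 4. Outside high-fat replicate 4 the arrays stood close together, and mulberry replicate 1 lay above high-fat replicates 1 and 3. Perforin averaged 8.7099 ± 0.0008 in mulberry and 8.7127 ± 0.00426 in high-fat arrays (SD, n = 4 each). The difference was -0.89 ± 0.63 SD units (SE, 95% interval -2.39 to 0.62, exact permutation p = 0.171) and -0.23 ± 0.163 without high-fat replicate 4.

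Nkg7, a membrane protein of cytotoxic granules that in mouse is needed for their release, had levels of 7.6730, 7.6733, 7.6726 and 7.6772 in mulberry replicates 1 to 4, against 7.6749, 7.6735, 7.6746 and 7.6844 in high-fat replicates 1 to 4. As for Gzmk, mulberry replicates 1, 2 and 3 were the 3 lowest arrays and mulberry replicate 4 was second to high-fat replicate 4. The difference was -0.72 ± 0.66 SD units (SE, exact permutation p = 0.429), and -0.0768 ± 0.311 without that high-fat array.

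Ctsw encodes cathepsin W, a papain-like cysteine protease that in human marks CD8 T cells and natural killer cells. Its levels were 7.567160, 7.567151, 7.567161 and 7.567174 in mulberry replicates 1 to 4, against 7.567169, 7.567168, 7.567155 and 7.567149 in high-fat replicates 1 to 4. High-fat replicate 4 was the lowest array and mulberry replicate 4 the highest, so high-fat replicate 4 lay at the other end from where it stood for 9 of the probe sets. The difference was 0.15 ± 0.72 SD units (SE, 95% interval -1.56 to 1.86, exact permutation p = 0.857), and -0.28 ± 0.695 without high-fat replicate 4.

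Among the chemokines, Ccl5 (RANTES), which cytotoxic lymphocytes release with their granules, had levels of 10.1079, 10.1038, 10.1083 and 10.1208 in mulberry replicates 1 to 4, against 10.1074, 10.1080, 10.1057 and 10.1254 in high-fat replicates 1 to 4. Replicate 4 was the highest array in both diets, and the other 6 arrays lay together. Ccl5 averaged 10.1102 ± 0.00736 in mulberry and 10.1116 ± 0.00923 in high-fat arrays (SD, n = 4 each). Its difference, -0.19 ± 0.71 SD units (SE, 95% interval -1.88 to 1.51, exact permutation p = 0.686), was the smallest of the 9 lower means, and it turned to 0.406 ± 0.524 without high-fat replicate 4.

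Xcl1 (lymphotactin), the ligand of the dendritic cell receptor Xcr1, had levels of 6.28980, 6.29010, 6.28969 and 6.29030 in mulberry replicates 1 to 4, against 6.29013, 6.29006, 6.29021 and 6.29101 in high-fat replicates 1 to 4. Mulberry replicates 1 and 3 were the lowest arrays, and mulberry replicates 2 and 4 overlapped the high-fat arrays. The difference, -0.94 ± 0.62 SD units (SE, 95% interval -2.42 to 0.53, exact permutation p = 0.229), was the largest in size among the 11 probe sets, and it was -0.391 ± 0.394 without high-fat replicate 4.

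**Figure D2:**
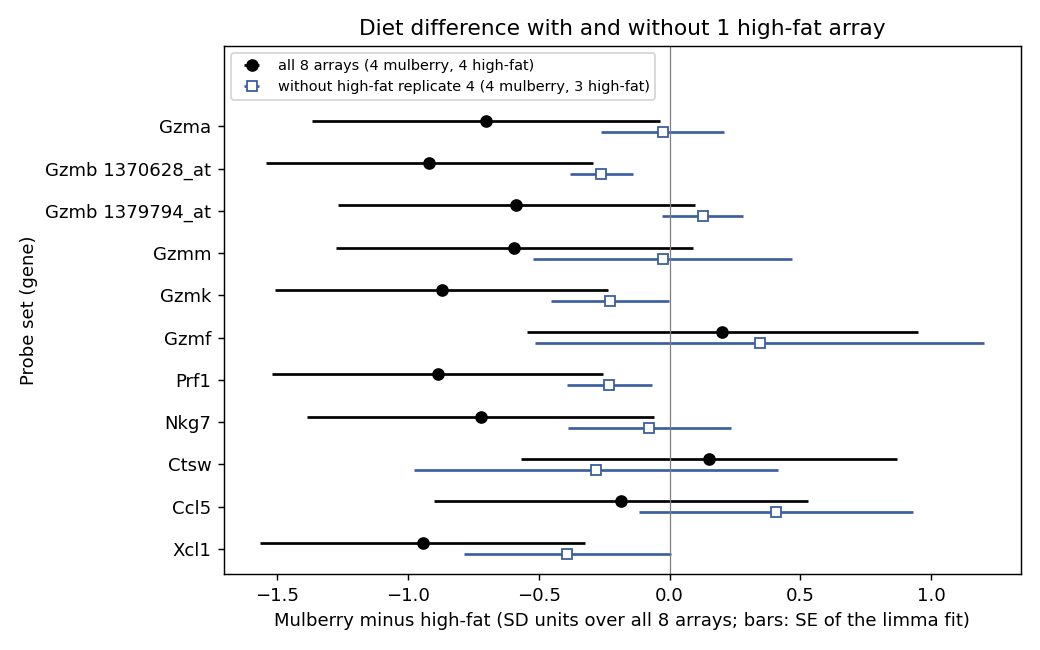
Mulberry minus high-fat difference (horizontal axis, SD units over all 8 arrays, bars the SE of the limma fit) for each probe set (vertical axis), with all 8 arrays in black and without high-fat replicate 4 in open blue squares. The median over the 11 probe sets is -0.70 with all arrays and -0.0768 without that array.

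How far 1 array carried the spread could be read from the SD itself. A single array among 8 can lie at most 2.47 SD units from the mean, and high-fat replicate 4 lay at 2.43 and 2.43 for the Gzmb probe sets, 2.41 for Prf1, 2.37 for Gzma, 2.37 for Gzmk and 2.30 for Nkg7. Without that array the SD was 20.8% of its full value for the first Gzmb probe set, 24.3% for Prf1, 40.3% for Nkg7, 63.8% for Gzmm and 71% for Ccl5. Over all probe sets the median was 102%. Averaged over the 11 probe sets, the arrays stood at -0.38, -0.58, -0.36 and 0.22 SD units in mulberry replicates 1 to 4, against -0.22, -0.25, -0.18 and 1.75 in high-fat replicates 1 to 4.

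The cytotoxic transcripts were also among the most variable on the array. The SD over the 8 arrays of 9 of the 11 probe sets lay above that of at least 98.8% of all probe sets, with Xcl1 at the 98.8 percentile, Gzmm at the 99.7 percentile and the Gzmb probe set 1379794_at at the 99.96 percentile. Without high-fat replicate 4 the same 9 stayed at or above the 98.3 percentile. Ctsw at 67.8 and Gzmf at 31.3 lay within the bulk. High spread was not particular to the cytotoxic genes, whose median percentile was 99.8. Among the lists described below, the median was 98.8 for monocyte, 98.7 for natural killer and 98.3 for platelet markers. It was 96.3 for protease inhibitors, 95.3 for B cell markers and 44.2 for T cell markers. The compression of the deposited scale may differ between probe sets, so these ranks describe the deposited values.

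**Figure D3:**
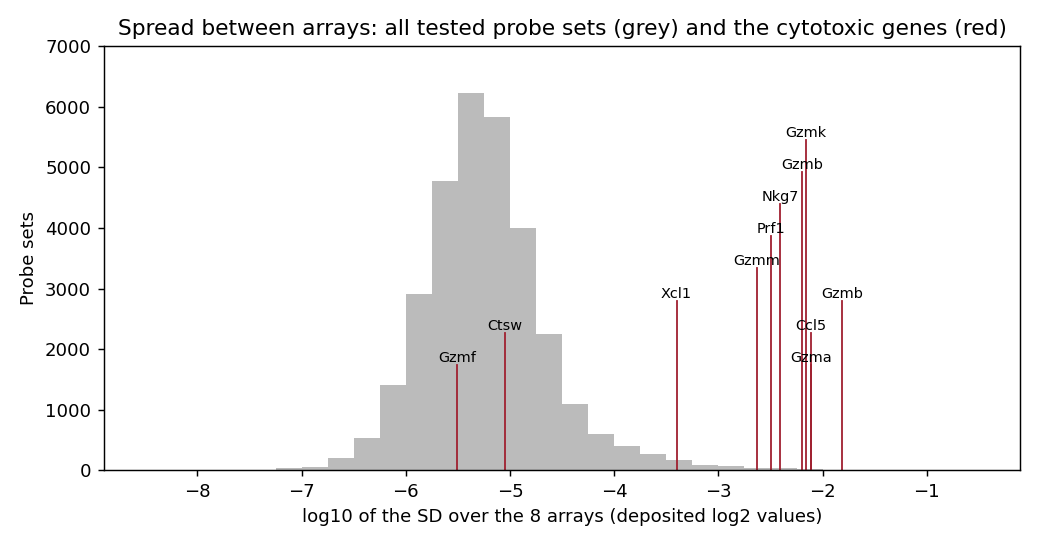
Number of probe sets (vertical axis) by log10 of the SD over the 8 arrays (horizontal axis), in grey for all tested probe sets with any spread, with red lines at the cytotoxic genes. Gzmf and Ctsw lie in the bulk and the other 9 probe sets in the upper tail, from the 98.8 percentile up.

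Promoter windows of 300 bases, from 250 before to 50 after the annotated start, were matched in RefSeq (GRCr8) for 8 of the 10 genes. They were searched on both strands for the core motifs of factor families known from mouse cytotoxic T cells: TGTGGT of RUNX, GGTGTG of the T-box factors and TGANTCA of AP-1. The RUNX core was present in 8 of 8 windows, against 17.3% of the 33469 rat promoters, the T-box core in 4 of 8, against 17.9%, and the AP-1 core in 1 of 8, against 7.33%. No RUNX match overlapped a match of the other motifs. Gzmb and Gzmf, which lie in the same protease cluster on chromosome 15 with 24 annotated genes between them, each held 3 RUNX cores, although their transcripts differed in spread between arrays as described above. A match describes letters in these windows and shows no binding.

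The Gzmb (chr15:34462420-34462719, minus strand) and Gzmf (chr15:33988838-33989137, minus strand) windows are printed whole, as the pair with 3 cores each, and the other windows as 46 bases around the core: Gzma (chr2:46485722-46485767, minus strand), Gzmk (chr2:46582170-46582215, minus), Gzmm (chr7:10667325-10667370, minus), Prf1 (chr20:29788886-29788931, plus), Nkg7 (chr1:102981371-102981416, plus) and Xcl1 (chr13:79785630-79785675, minus). Each reads 5′ to 3′ on the strand of the gene, and capitals mark the RUNX core, which reads ACCACA where it lies on the opposite strand.
Gzmb: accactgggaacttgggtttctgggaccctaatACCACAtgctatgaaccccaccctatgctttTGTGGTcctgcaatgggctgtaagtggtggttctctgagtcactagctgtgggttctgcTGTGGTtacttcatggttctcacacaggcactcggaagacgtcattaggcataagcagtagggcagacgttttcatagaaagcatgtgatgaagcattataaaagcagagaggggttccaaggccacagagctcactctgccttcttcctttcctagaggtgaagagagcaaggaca
Gzmf: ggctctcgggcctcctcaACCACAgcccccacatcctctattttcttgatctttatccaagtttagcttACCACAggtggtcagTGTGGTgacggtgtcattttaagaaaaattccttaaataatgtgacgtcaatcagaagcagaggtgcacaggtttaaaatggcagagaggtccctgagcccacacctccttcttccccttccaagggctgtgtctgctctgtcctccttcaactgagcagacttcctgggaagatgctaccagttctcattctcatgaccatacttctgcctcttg
Gzma: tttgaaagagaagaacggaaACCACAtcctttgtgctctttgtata
Gzmk: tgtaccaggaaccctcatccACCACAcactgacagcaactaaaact
Gzmm: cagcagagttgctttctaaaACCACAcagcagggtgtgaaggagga
Prf1: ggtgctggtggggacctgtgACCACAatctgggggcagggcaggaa
Nkg7: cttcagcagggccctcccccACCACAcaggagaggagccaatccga
Xcl1: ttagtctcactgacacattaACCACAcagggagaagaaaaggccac

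**Figure D4:**
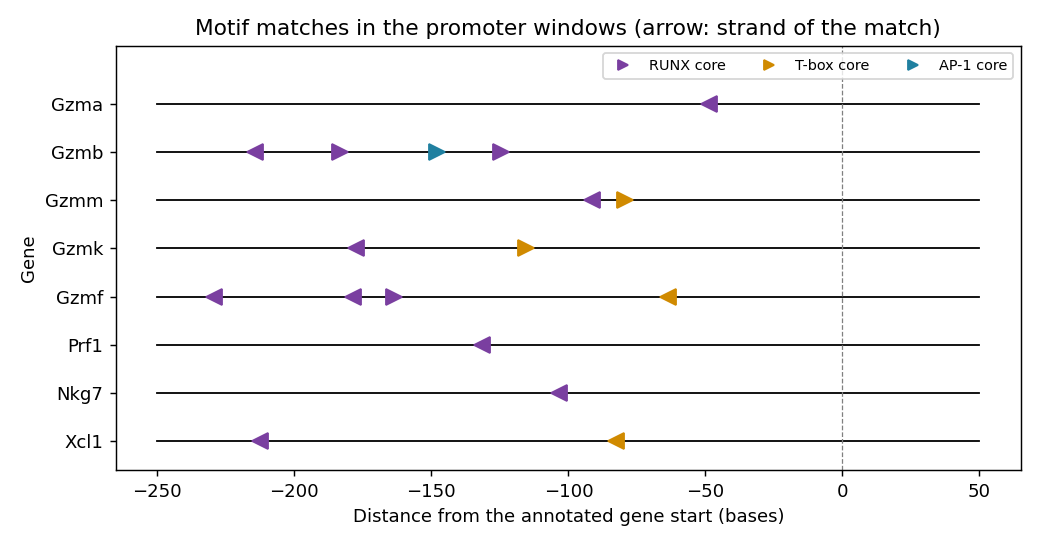
Positions of the motif matches (arrows, pointing right on the strand of the gene and left on the opposite strand) by distance from the annotated start in bases (horizontal axis) for the 8 genes with a promoter window. The RUNX core appears in 8 of 8 genes, at -51 in Gzma and at -215 in Xcl1.

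Killer cells carry activating and inhibitory receptors, which together decide whether granules are released. Of 16 measured genes for killer receptors and their adaptors (17 probe sets), 13 probe sets had lower mulberry means, against 47.3% of all probe sets. The median difference was -0.59, 0 passed in limma and 0 had an unadjusted p under 0.05, against 4.36% of all probe sets. Klrc1 of the NKG2 family differed by -1.21 ± 0.55 SD units (SE), the activating receptor gene Klrk1 by -0.99 ± 0.61 and Klrb1c by -0.97 ± 0.62. High-fat replicate 4 was the highest array for 12 of the 17, against 14.4% of all probe sets. For 3 of the 17 it was the highest and also far above the other high-fat arrays by Dixon's criterion, against 0.599%. Without it the median difference was -0.0181, with Klrc1 at -0.71, Klrk1 at -0.93 and Klrb1c at -0.52. Klrk1 was highest in high-fat replicate 1, at 1.69 SD units, against 0.67 in high-fat replicate 4.

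Of 19 genes for granule formation and release (30 probe sets), 13 probe sets had lower and 17 higher mulberry means. The share of lower means, 43.3%, was near the 47.3% over all probe sets, and the median of the list was 0.20. 0 passed after adjustment and 1 (3.33%) had an unadjusted p under 0.05, against 4.36% of all probe sets. That was 1 of 3 probe sets of Lamp1, a lysosomal membrane protein exposed on degranulation, at 1.28 ± 0.53 SD units (SE), while the other two were at -0.37 ± 0.70 and 0.26 ± 0.77 and so disagreed in sign. The granule tetraspanin gene Cd63 (1.01 ± 0.62) and the syntaxin gene Stx11 (0.99 ± 0.61) followed. These machinery genes are used in most secretory blood cells, and high-fat replicate 4 averaged 0.68 on them, against 0.70 for mulberry replicate 4.

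Protease inhibitors of the granule enzymes (7 genes, 9 probe sets) had lower mulberry means in 6 probe sets, against 47.3% of all probe sets. An unadjusted p under 0.05 was found for 0 of the 9, against 4.36% of all probe sets. Without high-fat replicate 4, 2 of the 9 were lower, against 47.8%, and the median difference went from -0.41 to 0.208 SD units. Serpinb9, which blocks granzyme B and shields the killer cell, had 2 probe sets, which differed by -0.83 ± 0.64 and -0.44 ± 0.70 SD units (SE). In high-fat replicate 4 both were the highest of the 8 arrays, at 2.06 and 2.15 SD units. The cystatin gene Cst3 differed by 1.15 ± 0.57 and the serpin gene Serpina3n by -0.77 ± 0.71.

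Among transcription factors of the cytotoxic programme (12 genes, 23 probe sets), 16 probe sets had lower mulberry means, against 47.3% of all probe sets, 2 (8.7%) had an unadjusted p under 0.05, against 4.36%, and 0 passed in limma. Those 2 were Prdm1, which encodes BLIMP1 (-1.45 ± 0.46 SD units, SE), and 1 of 5 probe sets of Klf2, a factor of resting lymphocytes (1.60 ± 0.45). The Klf2 probe sets disagreed in sign, as 3 of the 5 were lower in mulberry (-0.81 ± 0.65, -0.73 ± 0.66 and -0.0854 ± 0.72). Runx3, a RUNX factor of the CD8 and natural killer lineages, had 2 probe sets of opposite sign, at -1.14 ± 0.57 and 0.63 ± 0.69, which stood at 2.03 and -1.34 SD units in high-fat replicate 4. That array was the highest for 12 of the 23 transcription factor probe sets, against 14.4% of all probe sets. Without it 6 of the 23 were lower, against 47.8% of all probe sets, and the median difference went from -0.21 to 0.27 SD units. Of the 5 measured genes for cytokine receptors and Il15 (6 probe sets), 3 probe sets had lower means, against 47.3% of all probe sets. Il15 differed by 1.1 ± 0.58, Il2rb, the shared IL-2 and IL-15 receptor chain of killer cells, by -0.89 ± 0.63, and Il2rg by -0.79 ± 0.65, with Il2rb at 2.29 SD units in high-fat replicate 4.

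Of the 5 measured genes for receptors of chemokines and related signals, 4 had lower mulberry means, against 47.3% of all probe sets. An unadjusted p under 0.05 was found for 0 of the 5, against 4.36% of all probe sets. The list averaged 1.29 SD units in high-fat replicate 4. Without that array 2 of the 5 were lower, against 47.8% of all probe sets, and the median difference went from -0.32 to 0.12. Cx3cr1, a receptor of circulating killer cells and monocytes, differed by -0.999 ± 0.79 SD units (SE), Cxcr3 by -0.46 ± 0.70 and Ccr3 by -0.32 ± 0.71. Other effector genes had lower means in 5 of 9 probe sets, against 47.3% of all probe sets, with a median difference of -0.118. They averaged -0.011 in high-fat replicate 4. Among them were the cytokine genes Lta (1.1 ± 0.83) and Tnf (0.55 ± 0.71 and 0.0742 ± 0.72 for its 2 probe sets) and the galectin gene Lgals1 (0.51 ± 0.69).

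Natural killer markers averaged high in that array, and T cell markers as a list did not. The natural killer list (10 genes, 11 probe sets) shares 8 probe sets with the killer receptors, 2 with the transcription factors and 1 with the cytokine receptors, so it holds no probe set beyond those lists. It averaged -0.37, -0.51, -0.55 and -0.061 SD units in mulberry replicates 1 to 4, against -0.19, -0.057, -0.30 and 2.03 in high-fat replicates 1 to 4, with the adaptor gene Tyrobp at 2.18 and the receptor gene Klrd1 at 2.09 in high-fat replicate 4. The smallest unadjusted p of that list was that of Klrc1, given above. T cell markers (15 genes, 19 probe sets) ranged from -0.45 to 0.35 in mulberry arrays, against -0.355 to 0.71 in high-fat arrays. High-fat replicate 4 stood at -0.27 and was the highest array for 2 of the 19, against 14.4% of all probe sets. The Cd8a probe sets stood at -1.40, -0.20 and -0.0744 in that array and the Cd8b probe set at -0.0719. Above 0 there lay Lck (1.31), the Zap70 probe sets (1.31 and 1.05), Cd3g (0.86), Trat1 (0.59) and Cd3d (0.33). The remaining T cell probe sets lay below 0, so the list was mixed in that array. Of the 19 T cell probe sets, 8 had lower and 11 higher mulberry means, against 47.3% lower over all probe sets. The median difference of the list was 0.51 SD units. Its 2 brightest genes ran against that median: Cd3g, a chain of the T cell receptor complex, differed by -1.40 ± 0.48 SD units (SE) and Lck, its kinase, by -0.45 ± 0.76.

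Other cell types shifted there too. Monocyte markers averaged 1.302 in high-fat replicate 4, with Lyz2 at 1.92 and Csf1r at 2.07, against -0.79 to 0.33 in mulberry arrays and -0.41 to -0.052 in the other high-fat arrays. High-fat replicate 4 was the highest array for 8 of the 11 monocyte probe sets, against 14.4% of all probe sets. Ms4a7 (-1.52) and Cd163 (-0.40) lay below 0 in it. Platelet markers averaged -1.58 there, with Pf4 at -1.03, Itga2b at -1.66 and Tubb1 at -1.25, against a range of -0.57 to 1.62 in mulberry and -0.10 to 0.25 in the other high-fat arrays. Erythroid markers averaged -0.93 in that array, where 11 of the 13 probe sets lay below 0 (Alas2 -1.56) and Klf1 at 0.99 and Ahsp at 0.37 lay above it, with -0.55 to 0.62 in mulberry arrays and -0.13 to 0.53 in the other high-fat arrays. The part of cell make-up in the cytotoxic values was not tested, and in whole blood fewer cells of a type and less RNA per cell cannot be told apart.

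B cell markers stood at -0.21 in high-fat replicate 4, neutrophil markers at 0.41, eosinophil markers at -0.36 and mast cell and basophil markers, whose proteases are relatives of the granzymes, at -0.27. High-fat replicate 4 was the highest array for 1 of 13 B cell, 1 of 9 neutrophil, 1 of 5 eosinophil and 1 of 16 mast cell and basophil probe sets. Over all probe sets the share was 14.4%, so these counts do not set the 4 lists apart from it. Among their brightest genes that array stood at 0.40 for Ms4a1 and -0.28 for Cd79b of B cells, 0.42 for S100a9 and 0.38 for S100a8 of neutrophils, 1.49 for Ccr3 and -0.70 for Siglec5 of eosinophils, and 0.20 for Tpsab1 and -2.11 for Mcpt1 of mast cells. The genes of smallest unadjusted p in the marker lists not yet named, none of which passed in limma, were Fcer2 (-1.03 ± 0.60 SD units, SE), Cxcr2 (0.90 ± 0.63), Hdc (0.98 ± 0.61), Siglec5 (0.95 ± 0.62), Ms4a7 of monocytes (1.20 ± 0.58), Itga2b (1.24 ± 0.54) and Ahsp, the hemoglobin alpha chaperone (-1.09 ± 0.58). Ahsp and Ms4a7 ran against most of their lists. Of the erythroid probe sets 5 of 13 had lower mulberry means, and of the monocyte probe sets 9 of 11, against 47.3% of all probe sets. The median differences of these 2 lists were 0.325 and -0.50 SD units. Hbb, a hemoglobin chain, had a mean level of 15.09 and almost no spread between arrays. The bacterial hybridization controls averaged 1.301, 0.69, 0.47 and -0.24 SD units in mulberry replicates 1 to 4, against -1.44, 0.44, -0.16 and -1.07 in high-fat replicates 1 to 4. Their part in the cytotoxic values was not tested beyond a fit that holds them as a covariate, whose values are given with the other settings.

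**Figure D5:**
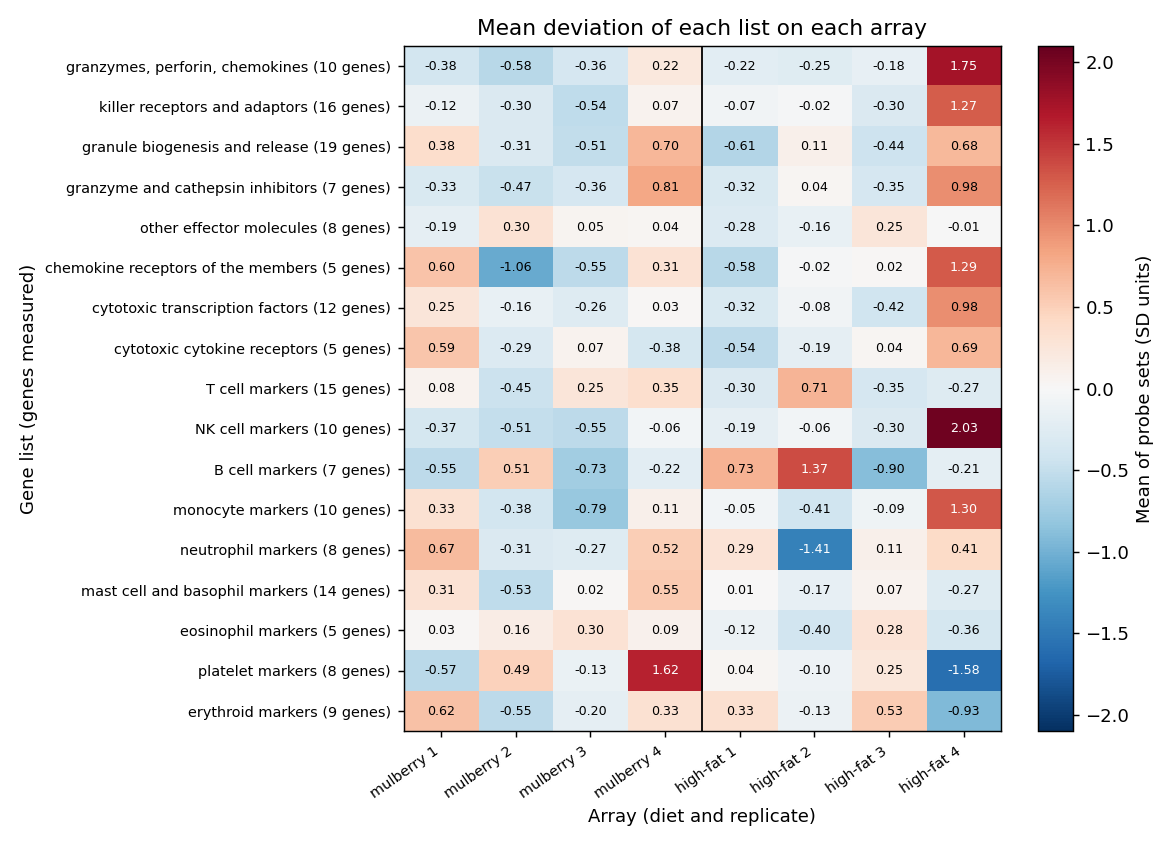
Mean of the probe sets of each gene list (rows) on each array (columns, mulberry left and high-fat right), in SD units by colour and printed value. High-fat replicate 4 reads 1.75 for the cytotoxic genes, 2.03 for natural killer markers and -1.58 for platelet markers.

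The 10 genes whose profile was most like the mean of the 11 probe sets had Pearson correlations of 0.964 to 0.987 with it over the 8 arrays, and 0.604 to 0.945 over the 7 arrays without high-fat replicate 4. They were Siae, Sdf2l1, Nr4a1, Crybg3, Cdyl, Rras, Tifa, Slc66a3, Rpl13a and Ptges3, in order of likeness, and no killer receptor gene was among them. Siae (sialic acid acetylesterase) had the highest value, 0.987, and Ptges3 the highest without that array, 0.945. All 10 were high in high-fat replicate 4, from 2.11 to 2.38 SD units. They were picked for likeness among all named probe sets, so the values are a description.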

How the data were processed

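Total RNA (200 ng) of whole blood was labelled for an Affymetrix 3′ expression array, per the labels' protocols. The values are the log2 probe set summaries deposited by the authors, and how they were summarised and normalized is not given in the sources used. Of 31099 probe sets, 57 manufacturer controls were left out. Gene names came from the platform annotation, in which 20826 tested probe sets named 1 gene, 436 several and 9780 none, and 20758 matched RefSeq (GRCr8) by gene number.

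Diets were compared with limma 3.58.1 in R 4.3.3 (lmFit, eBayes, two-sided, no covariate) across all 31042 probe sets with Benjamini-Hochberg adjustment at 0.05. Single probe sets also got a two-sided exact permutation test over arrays. For fits without an array, SD units stayed those of all 8 arrays. The cytotoxic genes and lists were chosen with earlier results of these data known. Every probe set of the cytotoxic genes is named, and from each pathway list the 3 genes of smallest unadjusted p, from each marker list the 2 of highest level and the 1 of smallest p, and the 10 most alike genes. Further probe sets of Serpinb9, Klf2, Runx3, Lamp1 and Tnf, and Cd3d, Cd8a, Cd8b, Zap70, Trat1, Cd163 and Klf1, were named after their values were seen. On simulated data of 31042 probe sets built from the measured means and within-group spread, the fit called 28% of probe sets moved by 4 within-group SDs and 100% at 8, 16 and 32, with 9 unmoved ones called. The number of arrays limits the precision, and detection calls were not used here. Deviations of same-numbered replicates correlated at -0.0462, -0.0505, 0.246 and 0.163 for replicates 1 to 4. Those of different-numbered replicates across the diets correlated at -0.199 to 0.147. These values do not settle whether replicate numbers pair the arrays. No more than 0.0354% of values were identical between any 2 arrays. Alternatives were other normalizations, dropping dim probe sets, a block for replicate number, another variance model, covariates and leaving out each array. Protein features were planned and are not analysed here.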

Additional observations from a re-analysis of the deposited data

Results flagged for a closer look

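Within a diet, 1 array stood apart from the other 3 by Dixon's gap-to-range ratio (past its 95% critical value for 4 samples) in 16 of 56 groups of 4 examined, where chance gives about 1 in 20 and the genes share arrays. High-fat replicate 4 was the array above the others for Gzma (0.8294, just past the critical value), Gzmb (0.889 for 1370628_at and 0.972 for 1379794_at), Gzmm (0.937), Gzmk (0.935), Prf1 (0.859), Nkg7 (0.872), Ccl5 (0.884) and Xcl1 (0.839). The same array stood apart for the mean of the 11 cytotoxic probe sets (0.965) and for the natural killer markers (0.896).

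Mulberry replicate 4 stood above the other mulberry arrays for Gzmk (0.906) and Nkg7 (0.86), and for the protease inhibitor list (0.888), at 0.81 SD units. High-fat replicate 2 stood above the other high-fat arrays for T cell markers (0.924), at 0.71 SD units, and below them for neutrophil markers (0.835), at -1.41 SD units.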

How the results depend on the processing

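No cytotoxic probe set passed the limma threshold under any of the 17 alternative settings, and 169 of 184 recomputed differences kept their direction. Part of that count was fixed in advance. The replicate block, the other variance model and the filter on dim probe sets cannot change a difference, only its p-value. Quantile normalization gave 12 probe sets past the threshold over the whole array, none of them a cytotoxic one, and a Gzmf difference of 0. It moved the median over all probe sets to -0.203 SD units, and median centring moved it to 1.15. The cytotoxic medians there were -0.585 and -0.699, but the shifts of median centring were too small to turn the lower cytotoxic probe sets. Adding the hybridization controls as a covariate gave a median of -0.178 and 7 lower means of 11, with Gzmm at 0.195, Gzmf at -0.201, Nkg7 at 0.0869 and Ccl5 at 0.665. With the T cell score in the model Ctsw turned to -0.0292. Whether replicate numbers pair the arrays is not settled. With the replicate block 1 cytotoxic probe set, Gzmm, had an unadjusted p under 0.05 (adjusted p = 0.869 in limma), against 0 without the block. The median difference was -0.701, which the block cannot change with 1 array of each diet per replicate number. Leaving out each array gave medians from -0.969 (without high-fat replicate 2) to -0.0768 (without high-fat replicate 4) and 8 to 10 lower means of 11. Over the same fits Ccl5 ranged from -0.64 to 0.406, the Gzmb probe set 1379794_at from -0.837 to 0.126, Ctsw from -0.309 to 0.546 and Gzmf from -0.157 to 0.721. The cause of these turns was not tested. The filter on dim probe sets left 8 of the 11. Signal over background was not used, so it is unknown which cytotoxic probe sets were above it.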
